A study of Mus musculus with 15 samples.

Results

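The TGF-beta signalling genes examined here were the ligands Tgfb1, Tgfb2 and Tgfb3, the receptors Tgfbr1, Tgfbr2 and Tgfbr3, the signal transducer Smad3, its repressor Skil and the secreted matrix protein gene Tgfbi. They were taken by gene symbol from the platform annotation, with every probe set that carried 1 symbol. This gave 24 probe sets for 9 genes, out of 45037 probe sets and 18193 genes in the whole series. A probe set is a group of short oligonucleotides on an Affymetrix array that together read 1 transcript or a few related ones.

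The 15 arrays held RNA from mouse lung cut out by laser capture microdissection, in which chosen cells are lifted from a tissue section under the microscope. All the mice carried a resident K-RasG12V allele, an oncogenic form of the small GTPase K-Ras that drives lung adenocarcinoma, and the same allele encodes a colour marker of the cells in which it is switched on. The allele was activated by an adenovirus delivering Cre recombinase, and lungs were taken 3 months after infection, so the normal cells came from infected lungs too. Of the arrays, 8 came from normal lung cells and 7 from early hyperplastic lesions, which the labels divide into H1 (3 arrays, lesion replicates 2, 3 and 4) and H2 (4 arrays, lesion replicates 1, 5, 6 and 7). The basis of the H1 and H2 labels, the number of mice and the mouse behind each piece are not stated in the labels, whose titles call the pieces biological replicates. The p-values therefore measure the spread between captured pieces, and they may be too small if pieces share an animal. The labels give no age or strain of the mice and name no cell type as the one that the virus reaches.

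TGF-beta ligands are secreted in a latent form, held to the extracellular matrix by latent TGF-beta binding proteins and released by integrins and proteases. The active ligand binds the type II receptor, Tgfbr2, which recruits and phosphorylates the type I receptor, Tgfbr1, and Tgfbr3 (betaglycan) presents ligand, above all Tgfb2, to the pair. Tgfbr1 phosphorylates Smad2 and Smad3, which join Smad4 and enter the nucleus, where Skil (SnoN) holds back Smad target genes and is itself both degraded and induced by the pathway. Tgfbi is a secreted, integrin-binding matrix protein named for its induction by TGF-beta. In lung the pathway is known for arresting epithelial growth and for driving matrix production by stromal cells.

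The promoter sequences of Tgfbi and Tgfbr1 are shown because these genes held the called probe set and the probe set with the largest difference among the members. Each window runs from 250 bases before to 50 bases after the annotated transcription start, from RefSeq on GRCm38.p6, printed 5′ to 3′ on the strand of the gene. Capitals mark the Smad box searched, CAGAC or GTCTG on the other strand. The Tgfbi window lies at chr13:56609336-56609635, plus strand, and the Tgfbr1 window at chr4:47352972-47353271, plus strand.
Tgfbi: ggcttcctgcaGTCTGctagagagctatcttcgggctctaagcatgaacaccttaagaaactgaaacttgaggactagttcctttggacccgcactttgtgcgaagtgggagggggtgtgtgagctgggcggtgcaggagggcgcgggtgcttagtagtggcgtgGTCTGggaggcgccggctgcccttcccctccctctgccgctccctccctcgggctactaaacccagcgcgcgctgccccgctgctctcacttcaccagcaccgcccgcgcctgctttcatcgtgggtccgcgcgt
Tgfbr1: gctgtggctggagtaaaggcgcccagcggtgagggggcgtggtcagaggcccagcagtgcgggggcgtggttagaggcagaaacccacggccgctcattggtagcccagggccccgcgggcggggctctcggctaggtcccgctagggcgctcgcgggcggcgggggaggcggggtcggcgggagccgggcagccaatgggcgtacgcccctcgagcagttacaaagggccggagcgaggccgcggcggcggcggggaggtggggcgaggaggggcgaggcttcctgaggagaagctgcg
The Tgfbi window held 2 boxes, both read as GTCTG, and the Tgfbr1 window held none. A second annotated start of Tgfbr1, with its window at chr4:47385966-47386265, had 1 box. The table held windows for 6 of the 9 genes, 7 windows in all, and 4 of these 7 had a box, beside 49.6% of 32851 windows in the table. The palindrome GTCTAGAC, the palindromic Smad site, which contains neither spelling of the box, was in 0 of the 7 and in 0.213% of all windows. These matches describe letters in a window and do not show that a Smad binds there.

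Values are log2 robust multi-array average (RMA) signals, so a difference of 1 is a doubling of signal. A probe set was called when its limma p-value, adjusted by Benjamini-Hochberg over all 45037 probe sets, was under 0.05. Each gene is described by its brightest probe set, averaged over all 15 arrays, with its other probe sets after it. Levels are compared only within a probe set, since different probe sets have different brightness.

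The captured pieces differed in cell markers and in array quality, and these values stand beside every result that follows. The 7 measured alveolar type 2 markers were all higher on average in H2 than in normal cells, with a mean level of 9.39 there beside 8.76 in H1 and 7.53 in normal cells, and 1 of them, Abca3, was called. The 5 general epithelial markers were also all higher in H2, from 6.12 in normal cells to 8.19, and Krt8, Krt18 and Cdh1 were called. Of 8 endothelial markers 6 were lower in H2, where their mean level was 4.46 against 5.10 in normal cells, and none was called. Of 10 fibroblast markers 5 were higher and 5 lower in H2, with Itga8 called lower and Col1a2 called higher. Lum and Dcn, counted as higher, differed by only 0.00035 and 0.025. Of 6 alveolar type 1 markers 3 were higher and 3 lower, and none was called. Of 7 macrophage markers 5 were higher in H2, with a mean level of 6.05 against 5.45. Of 4 club cell markers 1 was higher and 3 lower, and the higher one, Cyp2f2, was called. Of 6 smooth muscle and pericyte markers 1, Pdgfrb, was higher, by 2.86, and 5 were lower, with differences from -0.56 to -0.01. Their mean level was 4.86 in H2 against 4.59 in normal cells. Of 5 T and NK cell markers 1 was higher and 4 lower, and none in either list was called. Across normal arrays the mean level of the type 2 markers ran from 5.03 to 9.66. Whether cell content or array quality set this range was not tested. In such bulk samples fewer cells of a type and less RNA per cell cannot be told apart. The spread of log2 signals over an array, its standard deviation, was 1.54 ± 0.12 (SD, n = 4) for H2, 1.35 ± 0.08 (n = 3) for H1 and 1.33 ± 0.17 (n = 8) for normal cells. The 2 narrowest arrays were normal replicates 2 (1.10) and 8 (1.17). RNA integrity, read as the 3′ minus 5′ signal of Actb control probes, averaged -0.003 in H2, -0.70 in H1 and -0.63 in normal cells. A higher value means more signal at the 3′ end relative to the 5′ end. On Gapdh control probes it averaged 3.32 in H2, 2.54 in H1 and 2.53 in normal cells, with H2 replicate 7 the highest at 4.58. The part of cell content, array spread and RNA quality in the differences below was not tested beyond the alternative fits named.

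H2 lesions differed from normal cells in 1 probe set of the members, that of Tgfbi, which rose by 1.54 on the log2 scale. Over the whole array 919 probe sets were called in this comparison, 2.04% of those tested, 767 higher and 152 lower. With 1 call among 24, nothing can be called particular to these genes. At an unadjusted limma p under 0.05, 6 member probe sets were higher and 3 lower, and 18.9% of all probe sets passed that threshold. The median difference over the 24 was 0.12, beside -0.08 over all probe sets, with 13 positive and 11 negative. None of the 24 was called in H1 against normal, where 1 probe set of the table was called (0.00222%), in all lesions against normal, where 76 were (0.169%), or between H1 and H2, where 0 were (0%). At an unadjusted limma p under 0.05, 1 member was higher and 1 lower in H1 than in normal cells, beside 3.84% of all probe sets (735 higher, 995 lower). In all lesions 3 were higher and 1 lower, beside 11.1% of all (2836 and 2143), and in H1 against H2 2 were higher and 2 lower, beside 11.5% of all (2394 and 2768). The comparisons of H1, of H2 and of all lesions share the 8 normal arrays.

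**Figure D1:**
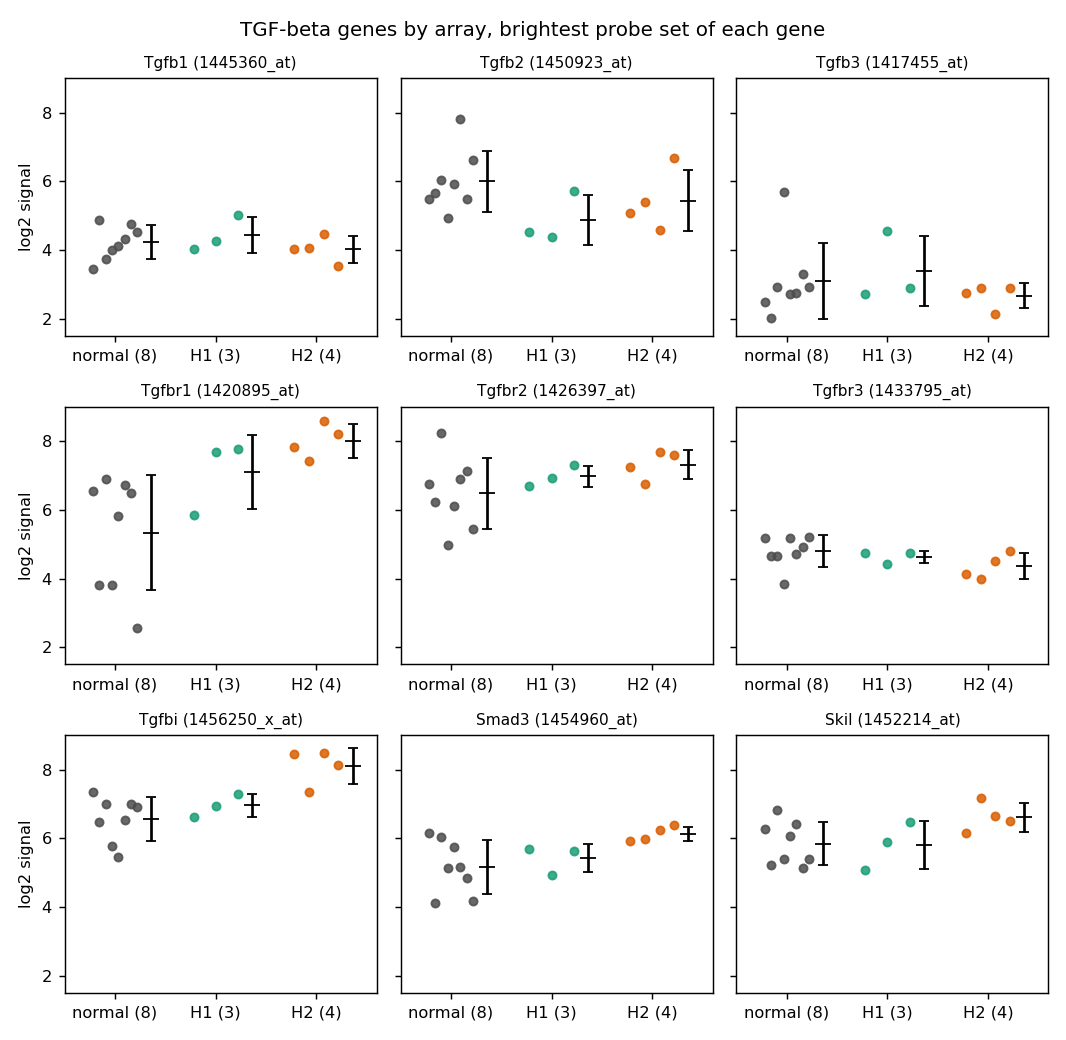
Log2 signal of the brightest probe set of each of the 9 genes on every array; points are arrays, grouped as normal (8), H1 (3) and H2 (4), and bars show mean ± SD. All 4 H2 points of Tgfbi and of Tgfbr1 lie above every normal point, and Tgfb1 shows the groups lying over each other.

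None of the ligand genes was called in any comparison. Tgfb1, the ligand best known from immune and stromal cells, had signals from 3.45 to 4.87 in normal cells, with a median of 4.22. Its H1 signals were 4.03, 4.27 and 5.02, and its H2 signals were 4.02, 4.07, 4.47 and 3.53. The groups overlapped throughout, with H2 minus normal at -0.20 ± 0.28 (SE; 95% interval -0.80 to 0.40) and H1 minus normal at 0.22 ± 0.31. The second Tgfb1 probe set, 1420653_at, differed by 0.12 in H2, where replicate 7 alone stood high at 4.25.

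Tgfb2, the ligand that depends most on betaglycan, ran from 4.95 to 7.83 in normal cells, with a median of 5.80 and with normal replicate 6 the highest. Its H1 signals were 4.52, 4.39 and 5.72, and its H2 signals were 5.08, 5.42, 4.60 and 6.68. Both H1 arrays at the bottom lay below every normal array, but the third H1 array and most H2 arrays lay within the normal range. The difference was -1.13 ± 0.53 in H1 (limma adjusted p = 0.999), -0.56 ± 0.47 in H2 (0.546) and -0.80 ± 0.40 in all lesions (0.481). The other 3 Tgfb2 probe sets differed in H2 by 0.21, 0.46 and -0.45, so the probe sets did not share a direction. The dimmest of them, 1450922_a_at, had H1 signals of 3.32, 3.41 and 3.33 and H2 signals of 2.57, 2.93, 2.59 and 2.77. Those groups did not overlap, with a difference of 0.63 ± 0.26 and a limma adjusted p of 0.39. The median of probe set means over the whole table was 3.99, so this probe set was among the dim ones.

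Tgfb3, the ligand known from epithelial and mesenchymal development, had a median of 2.83 in normal cells and a range from 2.03 to 5.69. Normal replicate 4 was alone at the top, and the next normal array stood at 3.31. H1 signals were 2.72, 4.55 and 2.90, and H2 signals were 2.74, 2.90, 2.14 and 2.90. Apart from normal replicate 4 and H1 replicate 3, every array lay at or under 3.31. The H2 difference was -0.44 ± 0.52 (interval -1.55 to 0.67), and the H1 difference turned on which array was left out, from -0.29 without H1 replicate 3 to 0.65 without normal replicate 4.

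Among the receptors, Tgfbr1 had the largest difference of all the members, and it was not called. In normal cells the type I receptor's probe set 1420895_at ran from 2.57 to 6.91 with a median of 6.16. Normal replicates 2, 4 and 8 were low, at 3.81, 3.81 and 2.57, and the other 5 normal arrays lay at 5.82 or above. H1 signals were 5.85, 7.70 and 7.77, and H2 signals were 7.83, 7.43, 8.58 and 8.21. All 4 H2 arrays were above every normal array, and H1 replicate 2 lay among the normal arrays while the other H1 arrays lay above them.

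The Tgfbr1 difference was 2.68 ± 0.74 in H2, a 6.40-fold higher signal (limma adjusted p = 0.074), 1.77 ± 0.82 in H1 (0.999) and 2.29 ± 0.63 in all lesions (0.176). Its wide normal spread, an SD of 1.68, set the size of these errors. The H2 difference was called in 3 alternatives: with dim probe sets left out (limma adjusted p = 0.03), with arrays weighted by quality (2.74, 0.0275) and without normal replicate 3 (2.90, 0.0352). Over the 13 alternative settings the lowest value was 1.08, from the mean of the gene's 3 probe sets and so not from 1420895_at alone. The adjusted p of the H2 difference ran from 0.0275 to 0.416 over all alternatives. Between H1 and H2 the difference was -0.91 ± 0.93, with an interval from -2.87 to 1.06, so these data leave a wide range of sizes. The other Tgfbr1 probe sets differed far less, by 0.44 ± 0.43 for 1420894_at and by 0.13 ± 0.31 for 1420893_a_at in H2. On 1420894_at all 3 H1 arrays lay between 6.22 and 6.40, inside the normal range of 4.60 to 6.60.

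Tgfbr2, the type II receptor that binds ligand, ran in normal cells from 4.99 to 8.25, with a median of 6.50. H1 signals were 6.71, 6.92 and 7.31, and H2 signals were 7.25, 6.76, 7.68 and 7.59. The lesions lay in the upper part of the normal range, but normal replicate 3 was higher than any of them. The H2 difference was 0.84 ± 0.45 (limma adjusted p = 0.329). The dimmer probe set 1425444_a_at went the other way. Its normal signals ran from 3.29 to 4.17, its H1 signals were 3.58, 3.43 and 3.28, and its H2 signals were 3.14, 3.00, 3.05 and 2.98. All H2 arrays were below every normal and every H1 array, with a difference from normal of -0.55 ± 0.19 (limma adjusted p = 0.129). The third Tgfbr2 probe set, 1422019_at, differed by -0.002 in H2. Mean signals over all arrays were 6.80 for the brightest probe set, 3.41 for 1425444_a_at and 2.18 for 1422019_at. The 3 probe sets gave no common direction, and both dimmer ones lay below 3.99, the median of probe set means over the whole table.

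Tgfbr3, the co-receptor betaglycan, had normal signals from 3.83 to 5.21 with a median of 4.82. H1 signals were 4.75, 4.42 and 4.73, and H2 signals were 4.13, 4.00, 4.51 and 4.82. The groups overlapped, and the H2 difference was -0.44 ± 0.25 on this probe set and -0.66 ± 0.38 on 1425620_at, both negative and neither called. On 1425620_at the H2 arrays stood at 3.51, 3.60 and 3.50 with replicate 7 apart at 4.99.

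Tgfbi was the member that rose in H2 lesions. On probe set 1456250_x_at its normal signals ran from 5.47 to 7.35 with a median of 6.72, its H1 signals were 6.63, 6.95 and 7.30, and its H2 signals were 8.45, 7.35, 8.49 and 8.13. H2 replicates 1, 6 and 7 were well above every normal array, while H2 replicate 5, at 7.351, was only just above the highest normal array, at 7.346. The H1 arrays lay inside the normal range, and all of them below H2. The H2 rise was 1.54 ± 0.33, or 2.91-fold, with a 95% interval from 0.84 to 2.25 and a limma adjusted p of 0.0279. In H1 the difference was 0.40 ± 0.37 (0.999), and in all lesions it was 1.05 ± 0.33 (0.25). The test of H1 against H2 gave -1.15 ± 0.41, with an interval from -2.02 to -0.27 and a limma adjusted p of 0.356, so the difference between the lesion classes was not called.

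All 4 Tgfbi probe sets had a positive difference in H2. It was 2.29 ± 0.77 on 1448123_s_at, 1.02 ± 0.34 on 1437463_x_at and 0.57 ± 0.27 on 1415871_at, with limma adjusted p of 0.129, 0.122 and 0.275. On 1448123_s_at the normal arrays ran from 2.83 to 7.34, and normal replicates 1 and 3, at 7.22 and 7.34, were above H2 replicates 1 and 5, at 6.76 and 6.47. In H1 the same 4 probe sets differed by 0.40, 0.64, 0.06 and -0.02. The suffix x_at marks a probe set in which some probes also match other sequences, and s_at one whose probes are shared by several transcripts, so the called probe set is not specific in every probe. Over all alternatives the adjusted p of the H2 rise ran from 0.00888 to 0.331. The Tgfbi call was lost without H2 replicate 1 (1.43, limma adjusted p = 0.0683), replicate 6 (1.41, 0.103) or replicate 7 (1.54, 0.0852), and the difference was 0.71 (0.331) when the arrays were quantile normalised again, which gives every array the same spread. With array spread as a covariate it was 1.26 (0.144), with the ratio of 3′ to 5′ signal of Actb, a measure of RNA integrity, it was 1.16 (0.188), and with that of Gapdh it was 1.52 (0.136). It was also lost with a trended robust prior (0.0644) and with only the normal and H2 arrays in the fit (0.0507).

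**Figure D2:**
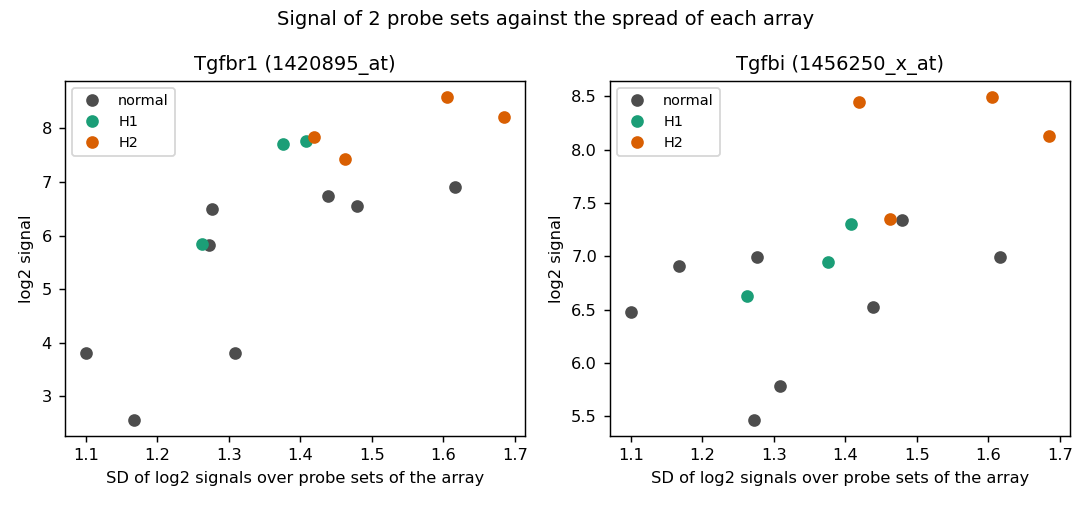
Log2 signal of Tgfbr1 (left) and Tgfbi (right) on each of the 15 arrays against the SD of all log2 signals on that array; colours mark normal, H1 and H2. Normal replicates 2 and 8, the arrays with the smallest spread (1.10 and 1.17), stand at 3.81 and 2.57 for Tgfbr1, and at 6.48 and 6.91 for Tgfbi.

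On the plot of signal against array spread Tgfbr1 was lowest on the narrow normal arrays and highest on the wide H2 arrays. The order was not strict. Normal replicate 3, with a spread of 1.62, stood at 6.91, below every H2 array, and H2 replicate 1, with a spread of 1.42, stood at 7.83. For Tgfbi the lowest normal arrays were replicates 4 and 5, at 5.79 and 5.47, which were not the narrowest. Leaving out the 2 narrowest normal arrays gave a difference in H2 of 1.96 for Tgfbr1 (limma adjusted p = 0.114) and of 1.59 for Tgfbi (0.0576). With array spread as a covariate Tgfbr1 was 1.19 (0.411) and Tgfbi 1.26, and with quantile normalisation repeated Tgfbr1 was 2.17 (0.167) and Tgfbi 0.71. The same covariate gave 0.03 for Tgfbr2, 0.28 for Smad3 and 0.16 for Skil in H2, each on its brightest probe set.

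Smad3, which carries the signal from Tgfbr1 to the nucleus, had normal signals from 4.10 to 6.15 with a median of 5.15 on its brightest probe set. H1 signals were 5.70, 4.95 and 5.63, and H2 signals were 5.93, 5.97, 6.24 and 6.38. The H2 arrays lay above all H1 arrays and around the top of the normal range, where normal replicates 1 and 3 also stood. The difference was 0.96 ± 0.36 in H2 (limma adjusted p = 0.168) and 0.26 ± 0.40 in H1 (0.999). Probe set 1450471_at went the other way. Its H1 signals of 4.23, 4.74 and 4.59 were all above its H2 signals of 4.13, 3.67, 3.91 and 3.44, and its H2 minus normal difference was -0.49 ± 0.21 (0.225). The third probe set, 1450472_s_at, differed by -0.11.

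Skil, the Smad repressor, ran from 5.14 to 6.81 in normal cells with a median of 5.73. H1 signals were 5.08, 5.90 and 6.48, and H2 signals were 6.15, 7.16, 6.66 and 6.49. Only H2 replicate 5 exceeded every normal array, so the groups overlapped. The difference was 0.78 ± 0.34 in H2 (limma adjusted p = 0.236) and -0.02 ± 0.38 in H1. The second Skil probe set, 1422054_a_at, differed by -0.64 in H2. It was dim, with a mean of 3.25 over all arrays beside 6.04 for the brightest probe set.

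Counting members whose groups did not overlap gave 3 of 24 in H2 against normal: the Tgfbr1 probe set 1420895_at, the Tgfbr2 probe set 1425444_a_at and the called Tgfbi probe set. Such a gap was found in 2.97% of all probe sets in that comparison. Between H1 and H2 the count was 5 of 24, on Tgfb2 1450922_a_at, Tgfbr2 1425444_a_at, Tgfbi 1456250_x_at, Smad3 1454960_at and Smad3 1450471_at, in a comparison where 16.9% of all probe sets did not overlap. In H1 against normal and in all lesions against normal it was 0 of 24, beside 1.29% and 0.171% of the table.

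**Figure D3:**
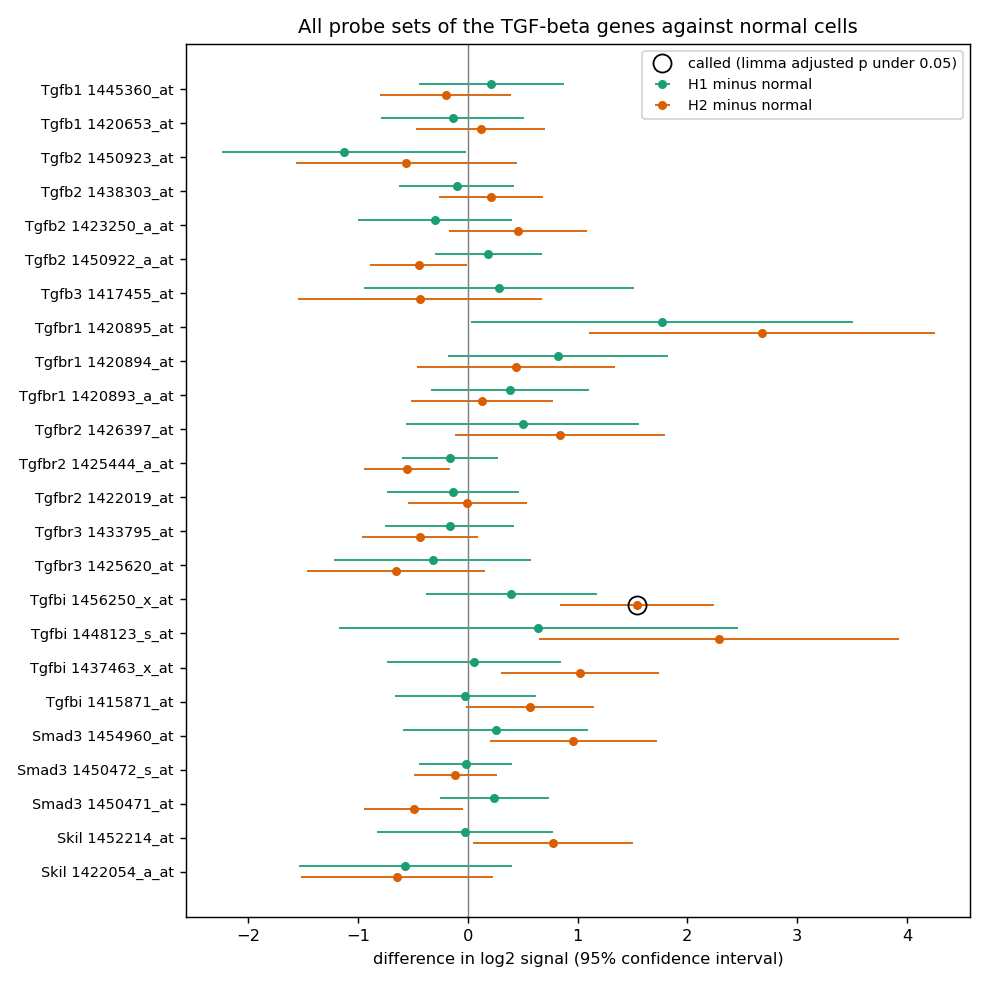
Difference in log2 signal from normal cells for all 24 probe sets, H1 and H2 separately; points are limma estimates, lines are 95% confidence intervals, and the ring marks the called probe set. The 4 Tgfbi probe sets lie to the right in H2, at 1.54, 2.29, 1.02 and 0.57, while probe sets of Tgfb2, Tgfbr2, Smad3 and Skil lie on both sides of 0.

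The other genes of the pathway were taken from 4 lists, with 69 genes listed and 65 measured, each at its brightest probe set. In H2 3 of the 65 rose and 0 fell (4.62%), beside 2.73% of all genes, and in H1, in all lesions and between H1 and H2 none of the 65 was called. At an unadjusted limma p under 0.05 the counts in the same order of comparisons were 20 higher and 1 lower in H2, 1 and 2 in H1, 11 and 2 in all lesions, and 1 and 9 in H1 against H2. Over all genes 21.6% passed that threshold in H2 (2338 higher, 1600 lower), 4.28% in H1, 12.9% in all lesions and 12.5% between H1 and H2. The other 4 listed genes had no probe set that carried 1 symbol, so they were not measured.

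Of the 14 measured genes of ligand latency and activation 9 were positive and 5 negative in H2, with a median difference of 0.20 beside -0.04 over all genes, and 2 were called. Ltbp2, a matrix protein of the latent TGF-beta binding protein family, had normal signals from 2.93 to 5.01, H1 signals from 4.94 to 5.67 and H2 signals from 5.82 to 6.39. All H2 arrays were above all others, and the rise from normal was 1.84 ± 0.36 (limma adjusted p = 0.019). Ltbp3, which binds latent ligand during its secretion, rose by 2.05 ± 0.44 on 1438312_s_at (0.0273), with H2 signals from 8.75 to 9.65 and normal signals from 5.34 to 8.28. Its other probe sets differed by 0.48, -0.26 and -0.57. They were dimmer, with means over all arrays of 4.66, 3.18 and 2.67 beside 7.76. Furin, the protease that cleaves the TGF-beta precursor, differed by 1.35 ± 0.43 (0.107), and Itgb6, a subunit of an integrin that frees the ligand, by -0.40 ± 0.22 (0.34), with 0.32 ± 0.27 on its other probe set.

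Of the 13 co-receptors and receptor regulators 8 were positive and 5 negative in H2, with a median of 0.33, and none was called. Pmepa1, a TGF-beta induced inhibitor of Smad signalling, differed by 1.73 ± 0.45 (limma adjusted p = 0.0587), with 0.52 and -0.38 on its other probe sets. It was called in 4 of 12 alternative settings, with adjusted p down to 0.0094 under array weights, and in 3 of 15 fits without 1 array, and it was 0.65 with array spread as a covariate (0.271). Strap, which binds Tgfbr1 and Smad7, differed by 1.72 ± 0.66, 0.87 ± 0.25 and 1.10 ± 0.31 on its 3 probe sets. With array spread as a covariate the first of these was 0.23. Smurf1, a ubiquitin ligase for receptors and Smads, differed by 0.83 ± 0.31, and 1 H2 array stood at 6.21 where the H2 median was 4.34. Its other probe set differed by -0.14 ± 0.19. Acvrl1, the endothelial type I receptor ALK1, differed by -1.62 ± 0.48 in H2 (0.0926) and -1.54 in H1, with all lesion arrays between 3.63 and 4.25 and normal arrays from 4.08 to 7.51. Its second probe set differed by -0.18. Endothelial markers were lower in the same lesions, with 6 of 8 below normal in H2 and 8 of 8 in H1, and a range of mean levels from 4.17 to 4.75 in H2 beside 4.14 to 6.32 in normal cells. Their part in the Acvrl1 value was not tested. With array spread as a covariate Acvrl1 was called, at -2.62 in H2 (limma adjusted p = 0.00627) and -2.06 in all lesions (0.01). In each comparison this was the only call in 11 alternative settings, and 0 of 15 fits without 1 array gave one. Over all alternatives the limma adjusted p reached 0.229 in H2 and 0.264 in all lesions.

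Of the 14 Smads and nuclear partners 8 were positive and 6 negative in H2, the median was 0.04 and none was called. Smad7, the inhibitory Smad induced by the pathway, differed by -0.46 ± 0.29 on one probe set and 0.29 ± 0.30 on the other. Tgif1, a corepressor of Smads, differed by 0.74 ± 0.25 (limma adjusted p = 0.13), Trim33, a ubiquitin ligase that acts on Smad4, by 0.62 ± 0.28 (0.253) and Zeb1, a repressor of epithelial genes, by -0.54 ± 0.68 (0.703). The other Trim33 probe sets were negative, at -0.52 ± 0.47 and -0.81 ± 0.43. Without H2 replicate 1 the Zeb1 difference on this probe set was 0.18. Its other probe sets differed by -0.82 ± 0.50, -0.06 ± 0.23 and 0.12 ± 0.20 in H2, and the first of them by -1.72 ± 0.55 in H1 (0.999).

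Of the 24 measured target genes 15 were positive and 9 negative in H2, with a median of 0.21, and Col1a2 was called. Col1a2, a chain of type I collagen, rose by 1.57 ± 0.37 (limma adjusted p = 0.0422), with H2 signals from 6.29 to 7.89 and normal signals from 3.95 to 6.21. Its other probe sets differed by 0.99 and -0.28. Col1a1, the partner chain, differed by 1.68 ± 0.54 (0.113), Col4a1, a basement membrane collagen, by 1.59 ± 0.55 (0.141) and Postn, a matrix protein of fibroblasts, by 1.33 ± 0.52 (0.189). The other probe sets of Col1a1 and Col4a1 differed by 0.64 ± 0.21 and 1.22 ± 0.37. With array spread as a covariate the differences of Col1a1, Col4a1 and Postn were 0.49, 0.30 and 0.41. Col1a2 and Col1a1 are also among the 10 fibroblast markers, as is Col3a1 of the same target list, which differed by 1.99 in H2. Of the 10 markers 5 were higher in H2, these collagens among them, and 5 lower. The other higher ones, Lum and Dcn, differed by only 0.00035 and 0.025. The lower ones differed by -3.06 (Itga8, called) to -0.52 (Pdgfra). The mean level of the markers ran from 5.48 to 5.81 in H2 and from 4.71 to 6.75 in normal cells. The Ltbp2 call was lost without H2 replicate 5, 6 or 7 in turn (limma adjusted p = 0.0541 to 0.055). The Ltbp3 call was lost without H2 replicate 1, 6 or 7 or without normal replicate 5 or 7 (limma adjusted p = 0.0514 to 0.0846). The Col1a2 call was lost without any 1 of the 4 H2 or 3 H1 arrays, or without normal replicate 4, 5, 7 or 8 (limma adjusted p = 0.0514 to 0.124). With array spread as a covariate the differences of Ltbp2, Ltbp3 and Col1a2 were 1.55, 1.26 and 1.09, with the Actb covariate 1.32, 1.40 and 1.07, and with the Gapdh covariate 1.70, 1.61 and 1.27, and none of these was called. With quantile normalisation repeated Ltbp3 was 1.16 (limma adjusted p = 0.155) and Col1a2 1.19 (0.149), both not called, and Ltbp2 was 1.70 (0.0446). The Ltbp3 and Col1a2 calls were also lost with the trended robust prior (0.0525 and 0.0564) and with only the arrays compared (0.0534 and 0.0745), and that of Col1a2 without the 2 narrowest normal arrays (0.0515).

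**Figure D4:**
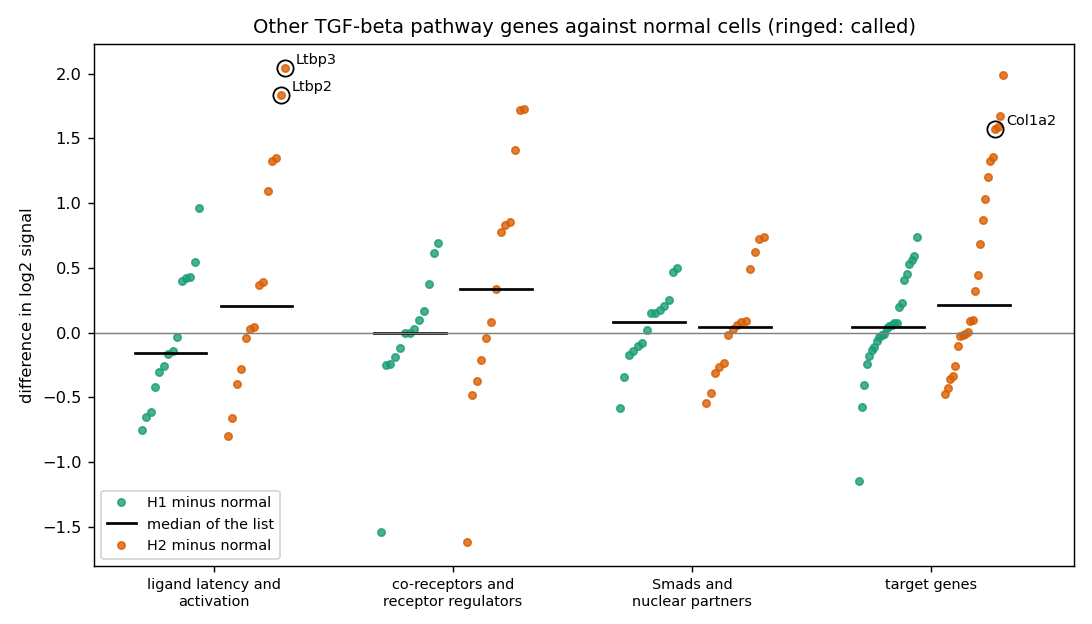
Difference in log2 signal from normal cells for 65 other pathway genes in 4 lists, each at its brightest probe set; points are genes, H1 and H2 separately, black lines are list medians, and rings mark called genes. Ltbp2, Ltbp3 and Col1a2 are ringed in H2 and no gene is ringed in H1, and the H2 medians of the lists are 0.20, 0.33, 0.04 and 0.21.

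Tgfbr1 and Tgfb3 varied most among the brightest probe sets of the members over the 15 arrays, with SDs of 1.77 and 0.92. After each probe set was centred on its own mean, the genes with the most similar profile to Tgfbr1 were Capn7, Sat1 and Mettl14, with root mean square differences of 0.47, 0.52 and 0.53 beside a median of 1.62 over 5620 genes. For Tgfb3 they were Fam184b, Pid1 and Fank1, at 0.57, 0.61 and 0.65 beside a median of 1.15 over 5621 genes. A flat profile would differ from Tgfb3 by about its SD of 0.92, which is already below that median. The Tgfb3 profile rested mainly on normal replicate 4 and H1 replicate 3. Its mean was 3.05, while the genes compared had a mean of at least 5. The arrays share the group structure and the array spread described above, so these likenesses are descriptions.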

How the data were processed

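The 15 arrays, 1 per captured piece, were read from the table of log2 signals that the authors deposited. Per the submitters' processing notes the authors used affy and RMA, which corrects background, quantile normalises and summarises probes per probe set; neither version is given there. Per the labels' protocols, RNA was amplified with a kit for small inputs. Whether this added noise to dim probe sets was not tested. The deposited arrays did not have equal spread. All columns matched a sample.

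Of 45101 probe sets, 64 array controls were left out; 34945 of the rest had 1 gene symbol in the platform annotation, 932 several and 9160 none. Probe sets with several symbols were not used as members. limma 3.58.1 in R 4.3.3 fitted lmFit and eBayes to all 45037, with normal against lesions in 1 fit and normal, H1 and H2 in another. The p-values were adjusted by Benjamini-Hochberg over all probe sets. No filter was used, and the script was tested on simulated data. The number of arrays limits the precision.

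The members and gene lists were chosen with earlier results of these data known. Pathway genes were named by a rule: up to 4 per list with the lowest p in lesions against normal, and any called probe set. Lesion and normal samples share replicate numbers. Over 7 pairs the correlations of deviations ran from -0.13 to 0.33, with 4 over 0.1. These cannot show whether pieces of the same number share a mouse, since deviations over all probe sets also carry array spread. The main fits did not treat the numbers as pairs, and an alternative fit used them as a block. Alternatives covered scaling, probe set choice, filters, priors, array weights, covariates and single arrays left out. RefSeq promoter windows (GRCm38.p6) were matched by symbol.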

Additional observations from a re-analysis of the deposited data

Results flagged for a closer look

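In 48 sets of values, a member probe set in normal cells or in H2, 5 had 1 array far from the others by Dixon's criterion, and chance alone gives about 5% of sets. Tgfb3 stood at 5.69 on normal replicate 4, with the next normal array at 3.31. Tgfbr3 1433795_at was lowest on the same normal replicate, at 3.83, with the next at 4.67. Tgfbr2 1422019_at stood at 3.27 on normal replicate 2, with the next at 2.46. On H2 replicate 7, Tgfbr3 1425620_at stood at 4.99, with the next H2 array at 3.60, and Smad3 1450472_s_at was lowest at 4.48, with the next at 4.81. The called probe set of Tgfbi and the brightest probe set of Tgfbr1 had no such array. The H1 group of 3 was too small for this criterion.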

How the results depend on the processing

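Few single probe sets had a call to lose. The Tgfbi call in H2 was kept in 5 of 13 alternative settings, with the difference from 0.71 to 1.68, and in 12 of 15 fits without 1 array. The calls of Ltbp2, Ltbp3 and Col1a2 were kept in 7 of 11, 5 of 12 and 4 of 12 settings and in 12, 10 and 4 of 15 fits without 1 array. Of all values under an alternative, 47 of 996 turned sign for the members' brightest probe sets, 18 of 378 for their other probe sets and 2 of 850 for the named pathway genes. The alternatives for pathway genes and for the other probe sets were added after seeing the data. The cause of each change below was not tested.

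Counts of probe sets called in lesions against normal were 148 (122 higher, 26 lower) with quantile normalisation repeated, 188 with dim probe sets left out and 228 with array weights. With H1 and H2 given equal weight in the fit of normal, H1 and H2 the count was 121. It was 134 (81 higher, 53 lower) with array spread as a covariate, 35 without the 2 narrowest normal arrays and 42 with the Gapdh covariate. With single arrays left out it ran from 19 (without H2 replicate 5) to 340 (without H1 replicate 2). In H1 against normal the counts were 2 with the highest probe set of each gene, 0 with the mean of each gene's probe sets, 19 with array weights, 0 with the replicate block, 21 with array spread, 3 without the 2 narrowest normal arrays, 2 with the Actb covariate and 1 to 3 with single arrays left out. In H2 against normal they were 409 with quantile normalisation repeated, 475 genes by the mean of probe sets, 3225 with array weights, 17 with the replicate block, 502 with only the arrays compared, 347 (163 higher, 184 lower) with array spread, 421 without the 2 narrowest normal arrays, 84 with the Actb and 88 with the Gapdh covariate, and 204 (without H2 replicate 6) to 2129 (without normal replicate 3) with single arrays left out. Between H1 and H2 they were 1 with the highest probe set of each gene, 76 with array weights, 1 without the 2 narrowest normal arrays and 0 to 1 with single arrays left out.

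The count of member probe sets called in H2 was 0 with quantile normalisation repeated, the trended robust prior, the replicate block, only the arrays compared, array spread, the Actb or Gapdh covariate, or without the 2 narrowest normal arrays. It was 2 with dim probe sets left out, 3 with array weights and 0 to 3 with single arrays left out, the 3 without normal replicate 3.

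Values that turned sign included Tgfbr1, Tgfb3, Smad3 and Tgfb2 between H1 and H2, where the reported differences were -0.91, 0.72, -0.71 and -0.57. For Tgfb1 in lesions the difference was 0.051 with array medians centred, 0.0073 with quantile normalisation repeated, 0.023 with array weights and 0.019 with the replicate block. It was 0.0070 with H1 and H2 given equal weight in the fit of normal, H1 and H2. With array spread it was 0.21, without the 2 narrowest normal arrays 0.13, with the Actb covariate 0.037 and with the Gapdh covariate 0.12. It ran from -0.16 to 0.089 with single arrays left out. In H2 Tgfb1 was 0.15 with array spread and 0.018 with Gapdh, in H1 it ran from -0.073 to 0.42 with single arrays left out, and Tgfb1 1420653_at in H2 was -0.097 with Gapdh and -0.28 to 0.33 with single arrays left out. Tgfb3 in lesions was 0.019 with Actb, 0.036 with Gapdh and -0.39 to 0.24 with single arrays left out, and in H1 it ran from -0.29 to 0.65. Skil in H1 was 0.033 with array medians centred, 0.22 with array weights, 0.023 with Actb and -0.35 to 0.35 with single arrays left out, and in lesions it was -0.089 by the mean of its probe sets. Smad3 was 0.041 between H1 and H2 by the mean of its probe sets and -0.089 in H1 without the 2 narrowest normal arrays, and Smad3 1450472_s_at in H2 was 0.066 with array spread.

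Tgfbr2 1422019_at in H2, which differed by -0.002, was 0.085 with array medians centred, 0.064 with quantile normalisation repeated, 0.086 with the replicate block, 0.41 with array spread, 0.16 without the 2 narrowest normal arrays, 0.21 with Actb, 0.25 with Gapdh and -0.17 to 0.15 with single arrays left out. Tgfbr2 between H1 and H2 was 0.24 with quantile normalisation repeated, 0.40 with array spread, 0.17 with Actb and 0.084 with Gapdh. Tgfbr1 between H1 and H2 was 0.45 with array spread and 0.059 with Gapdh, and Tgfb2 was 0.051 with Gapdh. In H2 Tgfbr1 1420894_at was -0.019 with array spread, and 1420893_a_at was -0.014 with Actb and -0.093 to 0.41 with single arrays left out. Smad7 in lesions was 0.0075 with array spread, and Zeb1 in H2 ran from -0.94 to 0.18 with single arrays left out.

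Lesion and normal samples share replicate numbers, and 1 of 7 lesion arrays correlated best with the normal array of its own number. With the replicate number as a block, Tgfb3 was -0.16, Tgfbr3 0.24 and Skil 0.0099 in H1, and between H1 and H2 Tgfb2 was 0.066, Tgfb3 -0.0091 and Tgfbr1 0.65. Under this block the count called in H2 moved from 919 to 17 and Tgfbi differed by 1.52 (limma adjusted p = 0.121). No detection call or background level was used here, so the reliability of the dimmest probe sets, such as that of Tgfb3, was not tested.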
